A study of Mus musculus with 8 samples.

Results

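Type I interferon response genes are the genes that cells switch on when interferon alpha or beta binds its receptor. The 32 described here were chosen as a list of gene symbols, with earlier results of these data known. Among them are the Ifit, Mx and Oas families, the transcription factors Stat2, Irf9 and Irf7, and antiviral effectors such as Rsad2. All 32 were present among the 23284 genes of the table. RNA was sequenced from whole lungs of 8 wild-type (WT) mice of strain C57BL/6, all of which had received a marrow transplant and then spent 3 days in hypoxia. In 4 recipients the donor marrow was triply n/i/eNOS-/-, so it lacked the nitric oxide synthases Nos1 (neuronal), Nos2 (inducible) and Nos3 (endothelial), and is named NOS-null marrow below. The other 4 received WT marrow. Lung tissue of the recipients kept all the synthase genes, and the sources used here give neither the share of donor cells, the ages of the mice nor the conditioning before transplant. Nothing in the labels ties or separates the mice of a group further, so p-values measure only the spread between these 8 samples. Every lung was hypoxic, so the values compare marrow types and not hypoxia with normal air. NOS-null replicate 1 stood apart from the other libraries, at −57.7 on the first principal component of all tested genes against −32.3, −3.35 and −1.40 in NOS-null replicates 2 to 4 and 17.7 to 27.2 with WT marrow. Where leaving it out moved a log2 change given here by over 1.5 times, the value without it is given too. This does not cover the Nos genes.

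Interferon alpha and beta signal through the receptor chains Ifnar1 and Ifnar2 and the kinases Jak1 and Tyk2. Stat2 and Irf9 are subunits of the complex ISGF3, which this signal activates. ISGF3 binds the interferon-stimulated response element (ISRE), a short promoter motif, and raises genes that block viral entry, translation, replication and release. Irf7 is itself such a gene and amplifies interferon production, while Usp18 is a feedback inhibitor at the receptor.

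The ISRE is what many of these genes share in sequence, so promoters were searched for its core. The search used RefSeq promoters of GRCm38.p6, which span 250 bases before to 50 after each start, and 23 of the 32 genes were matched. The core GAAANNGAA, read on both strands and allowed to overlap itself, was present in 14 of these 23 (60.9%), against 9.76% of 27025 genes with a promoter. The stricter core GAAACNGAA, which is a subset of the first, was present in 9 of 23 (39.1%), against 2.15% of all. The gamma-activated core TTCNNNGAA was present in 5 of 23 (21.7%), against 9.55% of all. Of the genes that passed the test described next, 3 of 7 with a promoter held the ISRE core, and of those that did not pass, 11 of 16 held it. A match is a description of these letters, not of binding. Among the genes that passed, Rsad2, Ifit1 and Ifi44 held the core, and Cmpk2, Ifit2, Irf7 and Oasl2 did not. The 6 stretches shown lie upstream of the start of Rsad2 and Ifit1, and of Isg15, Oas3, Stat2 and Bst2, which did not pass. The core is in capitals on the gene's strand, where a core on the opposite strand begins with TTC.
Rsad2: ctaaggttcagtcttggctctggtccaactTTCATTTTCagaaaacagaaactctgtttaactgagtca
Ifit1: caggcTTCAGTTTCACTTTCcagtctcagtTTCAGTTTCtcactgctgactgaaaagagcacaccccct
Isg15: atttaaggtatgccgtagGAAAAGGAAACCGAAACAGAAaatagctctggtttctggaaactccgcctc
Oas3: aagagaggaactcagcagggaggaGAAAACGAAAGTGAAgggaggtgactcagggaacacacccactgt
Stat2: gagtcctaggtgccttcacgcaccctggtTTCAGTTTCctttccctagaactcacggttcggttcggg
Bst2: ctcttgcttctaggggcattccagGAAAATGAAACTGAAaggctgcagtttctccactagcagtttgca
On GRCm38 these stretches lie at chr12:26456533-26456601 (Rsad2, minus strand), chr19:34640775-34640843 (Ifit1, plus), chr4:156200846-156200914 (Isg15, minus), chr5:120777690-120777758 (Oas3, minus), chr10:128270248-128270315 (Stat2, plus) and chr8:71537558-71537626 (Bst2, minus). The core nearest the start begins 119 bases before it in Rsad2, 84 in Ifit1, 66 in Isg15, 69 in Oas3, 221 in Stat2 and 124 in Bst2. Isg15 and Ifit1 each carry 3 cores in the promoter, Oas3 and Bst2 carry 2, and Rsad2 and Stat2 carry 1.

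With NOS-null marrow, 8 of the 32 genes rose, 0 fell and 24 did not pass the test. Those that rose were Rsad2, Ifi44, Usp18, Irf7, Ifit2, Ifit1, Oasl2 and Cmpk2. All 32 had a mean log2 change above 0, from 0.03 in Ddx58 to 1.67 in Rsad2, with a median of 0.56. Over all 14008 genes tested the median was 0.00051, and 50.1% had a change above 0. The test was limma on log2(scaled reads + 1), where scaled reads are read counts that the authors had scaled between libraries, with a threshold of 0.05 on p-values adjusted by Benjamini-Hochberg across the whole table. Adding 1 understates the change of low genes. By the same rule 1.87% of all tested genes rose and 2.18% fell. At an unadjusted p under 0.05, 24 of the 32 were higher and 0 lower. By that rule 13.3% of all tested genes were higher, and the share lower is not given here. Because the list was chosen with earlier results of these data known, these shares do not test for an excess among the 32. In whole lung, fewer cells of a type and less RNA per cell cannot be told apart, and the same holds for more.

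The number of genes that rose depended on single libraries. It was 9 without NOS-null replicate 1, 2 without replicate 2, 11 without replicate 3 and 6 without replicate 4. It was 4, 3, 3 and 4 without WT replicates 1, 2, 3 and 4 in turn. Rsad2 and Ifi44 passed in each of these 8 fits. The median change moved less, to 0.48 without NOS-null replicate 1 and 0.46 without both replicates 1 and 2, and all 32 changes were above 0 in both of those fits.

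**Figure D1:**
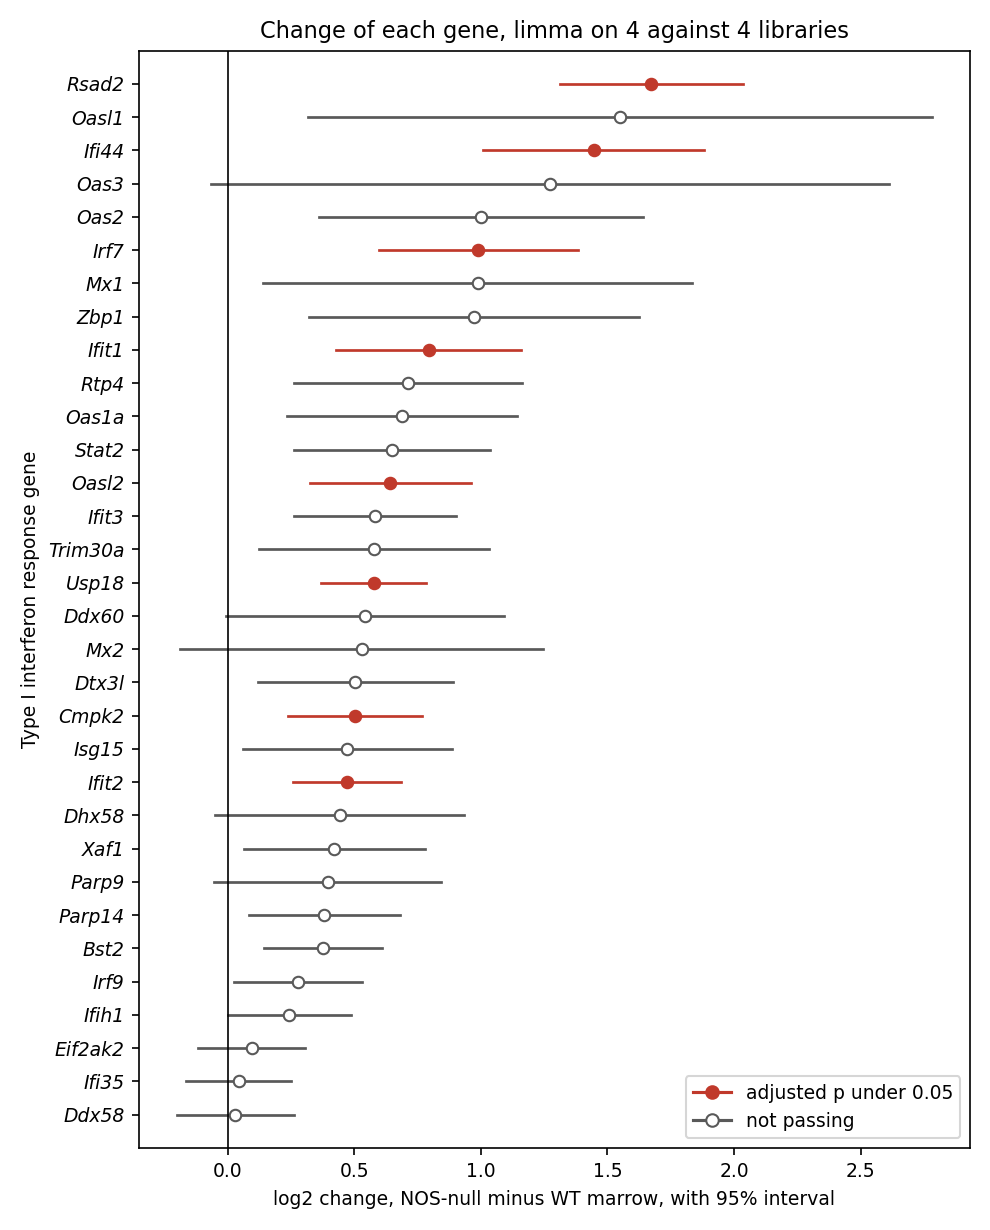
Change of each of the 32 genes on the horizontal axis, as the log2 difference between NOS-null and WT marrow with its 95% interval from limma, for 4 libraries a group. Filled red points mark the 8 genes past the threshold; Oasl1 and Oas3 have large changes with wide intervals, and Ddx58, Ifi35 and Eif2ak2 lie near 0.

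In 19 of the 32 genes every NOS-null library lay above every WT library, in 0 every one lay below, and in 13 the groups overlapped. Over all tested genes, 7.82% were separated with NOS-null marrow higher, a share that does not test for an excess either, given how the list was chosen. The share of all tested genes separated with NOS-null marrow lower is not given here. Of the 19 separated genes, 11 did not pass the test.

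The signalling factors came first in the pathway. Irf7, the factor that amplifies interferon production, had scaled reads of 420.4, 319.7, 231 and 321 with NOS-null marrow and 147, 199.5, 152 and 142 with WT marrow, replicates 1 to 4 in turn. The groups did not overlap, and NOS-null replicate 1 was highest. Irf7 rose by 0.99 on the log2 scale (SE 0.18, limma adjusted p 0.0219). Irf7 passed in 4 of 8 fits with 1 library left out, and its adjusted p in limma reached 0.0825 without WT replicate 1. It did not pass without NOS-null replicate 2 (0.0698) or WT replicates 3 (0.0622) and 4 (0.0530).

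Stat2 and Irf9, subunits of ISGF3, did not pass. Stat2 had 802, 464, 451 and 516 scaled reads with NOS-null marrow and 300.1, 395, 326 and 367 with WT marrow. The groups did not overlap and the log2 change was 0.65 (SE 0.17, limma adjusted p 0.0599). Without NOS-null replicate 1, its highest library, the change was 0.46 and the adjusted p in limma 0.0468; without replicate 3 they were 0.74 and 0.0483. Irf9 had 764, 555, 545 and 547 against 461, 493, 494 and 519.9, so 3 of its NOS-null libraries lay close together just above WT marrow. Its log2 change was 0.28 (SE 0.11, limma adjusted p 0.155) with all libraries and 0.16 (adjusted p 0.245 in limma) without NOS-null replicate 1.

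Rsad2, which encodes viperin, a radical SAM enzyme that makes a chain-terminating nucleotide, changed most. Its scaled reads were 1682, 2083, 1349.8 and 1875 with NOS-null marrow and 584, 579, 631 and 399.9 with WT marrow. The groups lay far apart, with the lowest NOS-null library well above the highest WT library. Rsad2 rose 3.19-fold (log2 1.67, SE 0.16, limma adjusted p 0.0020), and over the 8 fits with 1 library left out the log2 change lay between 1.53 and 1.79. Cmpk2, a mitochondrial nucleotide kinase, lies next to Rsad2 on chromosome 12, on the other strand. It had 481, 383, 386 and 419 scaled reads against 324, 329, 286 and 242, and it rose by 0.50 on the log2 scale (SE 0.12, limma adjusted p 0.0461). Cmpk2 passed in 1 of the 8 fits with a library left out, that without NOS-null replicate 3, and its adjusted p in limma reached 0.106.

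Ifi44, an interferon-induced protein of the cytoplasm, had the next largest change among the genes that passed. Its scaled reads were 140.5, 182, 148 and 150.1 with NOS-null marrow and 69.6, 58.1, 66.0 and 36.9 with WT marrow. The groups did not overlap, and it rose 2.72-fold (log2 1.45, SE 0.20, limma adjusted p 0.0078). Its adjusted p in limma was at most 0.0321 with any 1 library left out. Rsad2 and Ifi44 were the 2 genes in which all 4 NOS-null libraries exceeded 1.5 times the WT mean.

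The Ifit proteins bind viral RNA ends and block their translation, and 2 of the 3 rose. Ifit1 had 591, 569.5, 456 and 728 scaled reads with NOS-null marrow and 421, 303, 359 and 268 with WT marrow. Ifit2 had 533, 567, 525 and 553 against 428, 417, 406 and 326. Neither overlapped between groups. The log2 changes were 0.79 for Ifit1 (SE 0.16, limma adjusted p 0.0319) and 0.47 for Ifit2 (SE 0.096, limma adjusted p 0.0316). Ifit1 passed in 3 and Ifit2 in 4 of the 8 fits with a library left out, and their adjusted p in limma reached 0.0937 and 0.0979, both without NOS-null replicate 2. Ifit3 had 603, 498, 505 and 585 against 498, 342, 316 and 325, with WT replicate 1 level with the lower NOS-null libraries. Its log2 change was 0.58 (SE 0.14, limma adjusted p 0.0514), and without WT replicate 1 it was 0.73 with an adjusted p of 0.0237 in limma.

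Usp18 removes the ubiquitin-like protein Isg15 from its targets and restrains the receptor. Its scaled reads were 302, 299.9, 275 and 302 with NOS-null marrow and 211, 182, 216 and 183 with WT marrow. NOS-null replicates 1, 2 and 4 were nearly equal, and no library overlapped the other group. Usp18 rose by 0.58 on the log2 scale (SE 0.094, limma adjusted p 0.0160). It passed in 6 of 8 fits with a library left out, and its adjusted p in limma was 0.0566 without NOS-null replicate 2 and 0.0541 without WT replicate 2.

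Isg15 itself did not pass. It had 161, 194, 189 and 266 scaled reads with NOS-null marrow and 160.0, 145, 172 and 105 with WT marrow, so NOS-null replicate 1 lay within the WT range. Its log2 change was 0.47 (SE 0.19, limma adjusted p 0.144). The enzymes that attach Isg15 are not in the list of 32. Ube2l6, its conjugating enzyme, had 2235, 2021, 1772 and 1822 scaled reads against 1376, 1009.7, 1132 and 1050.2. It rose by 0.78 on the log2 scale (SE 0.11, limma adjusted p 0.0095) and passed in all 8 fits with a library left out. Its activating enzyme Uba7 (367 ± 71.0 against 322 ± 46.5, SD, n = 4) and the ligase Herc6 (302 ± 34.4 against 209.8 ± 34.5) did not pass, with log2 changes of 0.18 and 0.53, or 0.058 and 0.48 without NOS-null replicate 1. Uba7 and Herc6 were chosen after their values were seen.

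**Figure D2:**
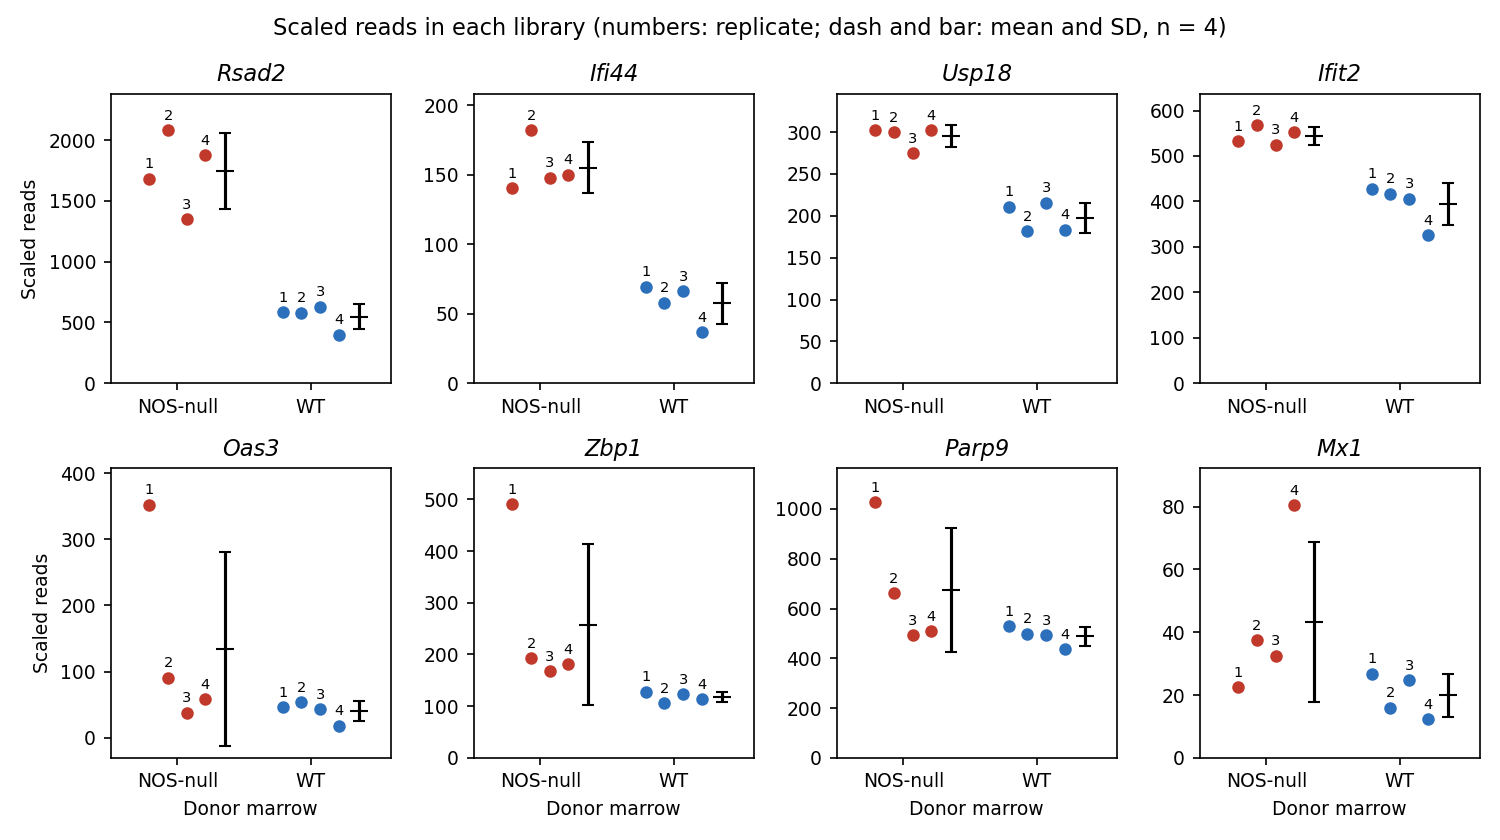
Scaled reads in every library (vertical axes, each with its own scale) for 4 genes that rose, in the upper row, and 4 that did not pass, in the lower row, with the group mean and SD (n = 4). In the upper row all NOS-null libraries lie above WT marrow; in the lower row replicate 1 stands far above the other libraries in Oas3, Zbp1 and Parp9, and below NOS-null replicates 2 to 4 in Mx1.

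The oligoadenylate synthetases sense double-stranded RNA and activate RNase L, and the Oasl genes are their relatives. Of the 5, Oasl2 rose. It had 761, 636, 468 and 622 scaled reads against 418, 401, 429 and 329, a log2 change of 0.64 (SE 0.14, limma adjusted p 0.0402). Oasl2 passed in 1 of 8 fits with a library left out, that without NOS-null replicate 3, and its adjusted p in limma reached 0.114.

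The other 4 of this family had changes of 0.69 to 1.55 that did not pass. Oas3 had 353, 90.6, 37.5 and 57.6 scaled reads with NOS-null marrow and 45.7, 53.4, 43.4 and 18.0 with WT marrow. Replicate 1 was 6.12 times the median of the other NOS-null libraries, and replicate 3 lay within the WT range. Its log2 change of 1.27 (SE 0.60, limma adjusted p 0.208) was 0.63 without replicate 1.

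Oasl1, which holds back translation of Irf7, had 166, 62.5, 36.5 and 70.7 scaled reads against 36.8, 45.9, 24.6 and 7.56. Its log2 change was 1.55 (SE 0.56, limma adjusted p 0.117), the second in size after Rsad2, with overlap at NOS-null replicate 3, and it was 1.15 without replicate 1. Oas2 had 307, 165, 99.6 and 141 against 70.5, 94.6, 70.0 and 92.6, without overlap. Its log2 change was 1.00 (limma adjusted p 0.0698), and 0.70 without replicate 1. Oas1a differed from its relatives in how its libraries lay. Its 77.9, 93.7, 89.7 and 83.7 scaled reads were lowest in NOS-null replicate 1 within the group, and all lay above the WT values of 68.6, 51.5, 64.1 and 35.0.

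The Mx GTPases trap viral nucleocapsids, and the Mx1 allele of most laboratory strains, C57BL/6 among them, is known to be defective. Mx1 had 22.6, 37.5, 32.5 and 80.5 scaled reads with NOS-null marrow and 26.8, 15.9, 24.6 and 12.3 with WT marrow. Mx2 had 13.3, 19.8, 31.6 and 30.5 with NOS-null marrow and 10.4 to 20.7 with WT marrow. In both genes NOS-null replicate 1 was the lowest of its group and lay within the WT range. The log2 changes were 0.99 for Mx1 (SE 0.38, limma adjusted p 0.139) and 0.53 for Mx2 (SE 0.32, limma adjusted p 0.311), and without replicate 1 they were 1.24 and 0.77.

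Of the nucleic acid sensors, none passed in limma. Ddx58 (RIG-I) and Eif2ak2 (PKR), which detect viral RNA, had small log2 changes, 0.03 (95% interval −0.20 to 0.26) and 0.09 (−0.12 to 0.31). The log2 change was 0.24 in Ifih1 (MDA5), 0.44 in its regulator Dhx58 (LGP2) and 0.54 in the helicase Ddx60, all with overlapping groups. Without NOS-null replicate 1 the change was 0.32 in Ddx60, whose level there was 2.06 times the median of NOS-null replicates 2 to 4, and 0.057 in Ddx58. Zbp1, a sensor of Z-form nucleic acid that triggers necroptosis, had 490.1, 193, 168 and 181 scaled reads against 128, 106, 123 and 113. The groups did not overlap, but replicate 1 was 2.71 times the median of NOS-null replicates 2 to 4. The log2 change was 0.97 (SE 0.29, limma adjusted p 0.0768) with all libraries and 0.61 (adjusted p 0.0267 in limma) without replicate 1.

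Parp9, Parp14 and Dtx3l, which act in ADP-ribosylation and ubiquitin transfer, lie within a short stretch of chromosome 16 and did not pass. Parp9 had 1028, 662, 493 and 508 scaled reads against 529.6, 498, 493 and 438, a log2 change of 0.40 that was 0.17 without NOS-null replicate 1. Parp14 and Dtx3l had log2 changes of 0.38 and 0.50, which were 0.24 and 0.30 without that library. Exons of Parp9 and Dtx3l overlap on opposite strands, and the kit's strand is not stated, so reads of the 2 cannot be told apart there. In all, 11 of the 32 genes share exon bases with another annotated gene, Irf7 and Usp18 among those that rose. Bst2 (tetherin), which holds budding virus at the cell surface, had 984, 883, 779 and 757 scaled reads against 720.3, 591, 697 and 609.7. Its groups did not overlap and its log2 change was 0.38 (SE 0.10, limma adjusted p 0.0654). Rtp4 had a log2 change of 0.71, Trim30a 0.58 and Xaf1 0.42, each separated without passing, and Ifi35 had 0.04 with overlap. Without NOS-null replicate 1 these were 0.48 in Rtp4, 0.36 in Trim30a, 0.25 in Xaf1 and 0.017 in Ifi35. Rtp4 passed without NOS-null replicate 1 (adjusted p 0.0465 in limma) and without replicate 3 (0.0484).

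**Figure D3:**
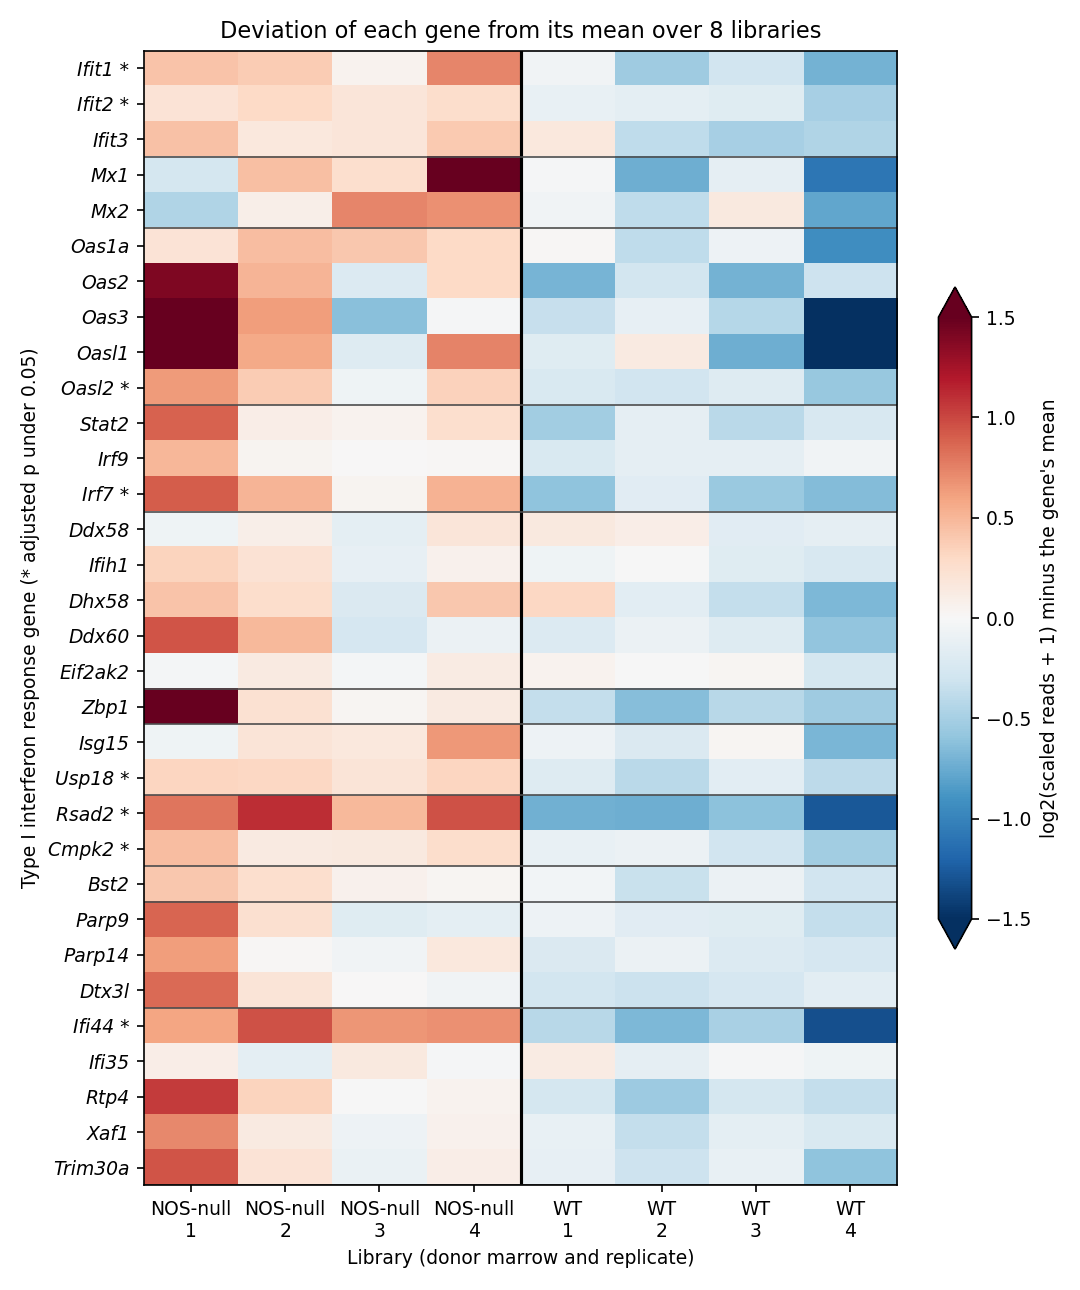
Deviation of each gene (rows, grouped by role, with lines between roles) from its own mean over the 8 libraries (columns), on the scale of log2(scaled reads + 1), with colours capped at 1.5 in either direction. NOS-null replicate 1 is the reddest column for Oas2, Oas3, Oasl1 and Zbp1 but not for Mx1, Mx2 or Isg15, and WT replicate 4 is the bluest.

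Values of the 32 genes differed among the 4 NOS-null lungs. The median deviation from a gene's own mean was 0.54, 0.24, 0.02 and 0.26 in NOS-null replicates 1 to 4 and −0.12, −0.25, −0.20 and −0.51 in WT replicates 1 to 4. Over all tested genes these medians lay within 0.0045 of 0, which the authors' scaling between libraries brings about, so they are no independent background. NOS-null replicate 1 was the highest library in 21 of the 32 genes, and WT replicate 4 the lowest in 20. The matching shares of all tested genes are not given here. Summed over the 32 genes, scaled reads were 17015, 13646, 11406 and 13322 with NOS-null marrow and 9715, 9142, 9235 and 8109 with WT marrow.

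In 12 genes replicate 1 exceeded 1.5 times the median of NOS-null replicates 2 to 4, and none of the 8 that rose was among them. These 12 were Oas2, Oas3, Oasl1, Zbp1, Ddx60, Parp9, Parp14, Dtx3l, Rtp4, Trim30a, Stat2 and Xaf1. A far library widens the spread that the test uses, so this ratio and passing are not independent. Zbp1, Stat2 and Rtp4 passed in limma without replicate 1 (adjusted p 0.0267, 0.0468 and 0.0465). The share of all tested genes with such a ratio is not given here. In 9 genes replicate 1 was at or under that median, with Mx2 lowest at 0.44 times. Among the 8 that rose the ratio lay between 0.90 in Rsad2 and 1.32 in Irf7.

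**Figure D4:**
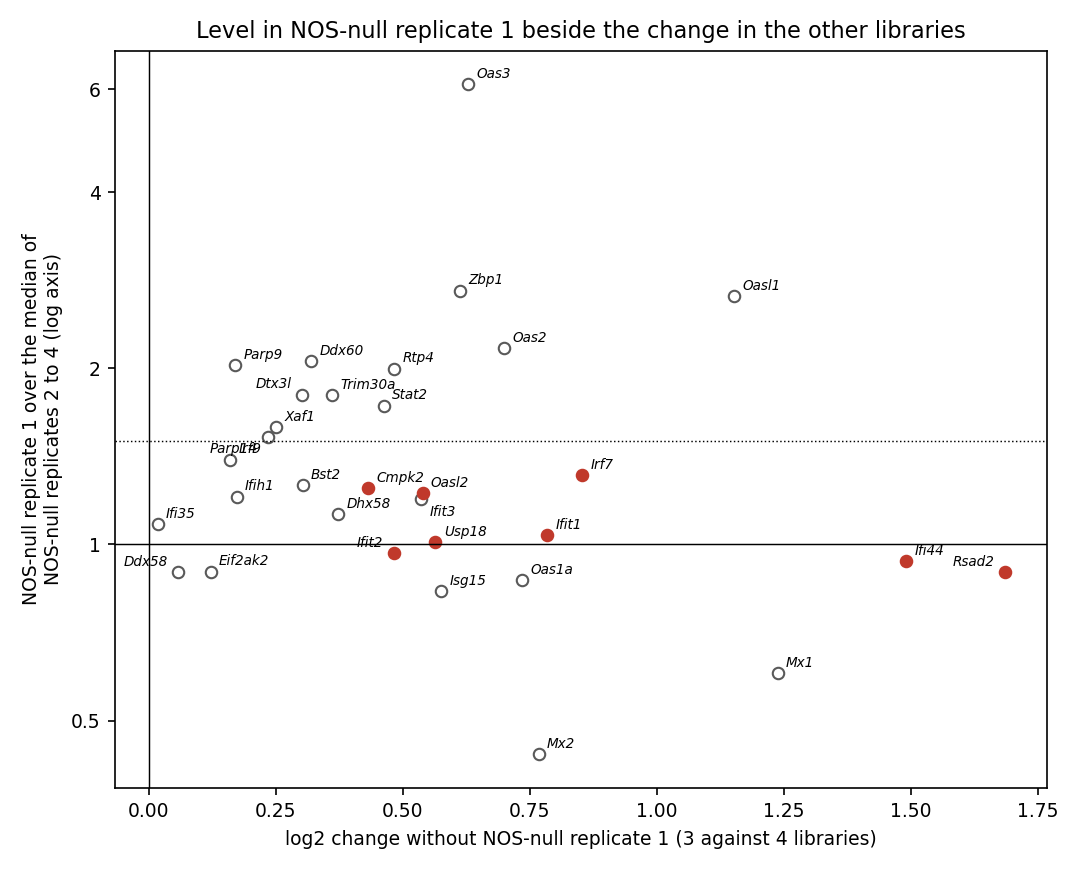
NOS-null replicate 1 relative to the median of NOS-null replicates 2 to 4 (vertical, log axis; dotted line at 1.5) against the log2 change computed without replicate 1 (horizontal), one point per gene, filled red where the gene rose. Oas3 stands at 6.12 on the vertical axis, Rsad2 and Ifi44 lie farthest right just under 1, and Mx2 is lowest.

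Markers of blood and immune cells also differed between libraries, and leaving the most abundant gene out of a sum below was chosen after seeing the data. The 9 neutrophil markers in the table, such as S100a8, summed to 97382, 14697, 6741 and 8095 scaled reads in NOS-null replicates 1 to 4 and to 3236 to 5754 with WT marrow. None of the 9 was at 0 in every library, and of the 8 tested all had changes above 0, with 0 passing in limma. In 6 of these 8 every NOS-null library lay above every WT library, against 7.82% of all tested genes. The median log2 change of the 8 was 2.02 with all libraries and 1.29 without NOS-null replicate 1. Alveolar macrophage markers summed to 26042, 19969, 11281 and 13423 against 9033 to 10405, with 1 of 10 higher (Ear2) and 1 lower (Siglec5). Most of that sum was Chil3, and without it the sums were 3784, 5185, 3705 and 3593 against 3204 to 3680. Marco was lower in every NOS-null library than in any WT library but did not pass. Monocyte and interstitial macrophage markers summed to 8561, 8434, 4893 and 5266 against 3333 to 5332, with 0 of 12 passing. B cell markers summed to 68.7, 221, 822 and 811 against 1117 to 2253, and all 4 tested were separated with NOS-null marrow lower, without passing. Their median log2 change was −2.39, or −1.56 without NOS-null replicate 1, and the share of all tested genes separated lower is not given here. T cell markers summed to 515, 1207, 388 and 402 against 309 to 482, with 0 of 7 passing. Erythroid markers summed to 14309 to 22977 against 9543 to 10654, with 4 of 6 higher. The part of these cells in the interferon genes' values was not tested. Markers of plasmacytoid dendritic cells, the main interferon producers of blood, were led by Tcf4, which many other cells express. Without it they summed to 197, 229, 296 and 252 against 315 to 596, with 0 of 5 tested passing. Klk1, too low to test, added 246 scaled reads to that sum in WT replicate 2 and 71.8 in WT replicate 4. It had 3.94 to 12.5 in the NOS-null libraries and 6.90 and 9.94 in WT replicates 3 and 1. Of the 5 tested, 2 had changes above 0, Cox6a2 at 0.46 and Ccr9 at 0.12. Without NOS-null replicate 1 these were 0.36 and 0.39. Ly6d of this list, which B lineage cells also express, had 2.05 to 64.1 scaled reads against 102 to 204. Its log2 change was −2.69 (limma adjusted p 0.0752), or −1.72 without NOS-null replicate 1. Siglech, the defining marker of these cells, had 14.4, 38.5, 50.3 and 55.5 scaled reads with NOS-null marrow and 32.5 to 41.7 with WT marrow. Markers of NK cells were lower, at 98.9 to 162 against 232 to 350.3, with 2 of 4 tested passing. Of these 4, 3 were separated with NOS-null marrow lower, and the matching share of all tested genes is again not given.

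Levels per transcript length, in FPKM (fragments scaled by transcript length and library size), placed Bst2 far above the rest. It had 139.8 ± 13.6 FPKM (SD, n = 4) with WT marrow, followed by Ifi35 (43.7 ± 3.32), Isg15 (31.7 ± 6.38), Irf9 (26.7 ± 1.25) and Ifit3 (24.7 ± 5.70). The lowest were Oas3 (1.06 ± 0.41), Mx1 (0.93 ± 0.32) and Mx2 (0.85 ± 0.24). Of the 31 pairs of neighbours in this order, 8 differed by more than the larger SD of the 2, and the long middle of the order did not separate. Rsad2 was the 7th highest with WT marrow, at 18.3 ± 3.39 FPKM, and the 2nd with NOS-null marrow, at 58.2 ± 10.4 FPKM.

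**Figure D5:**
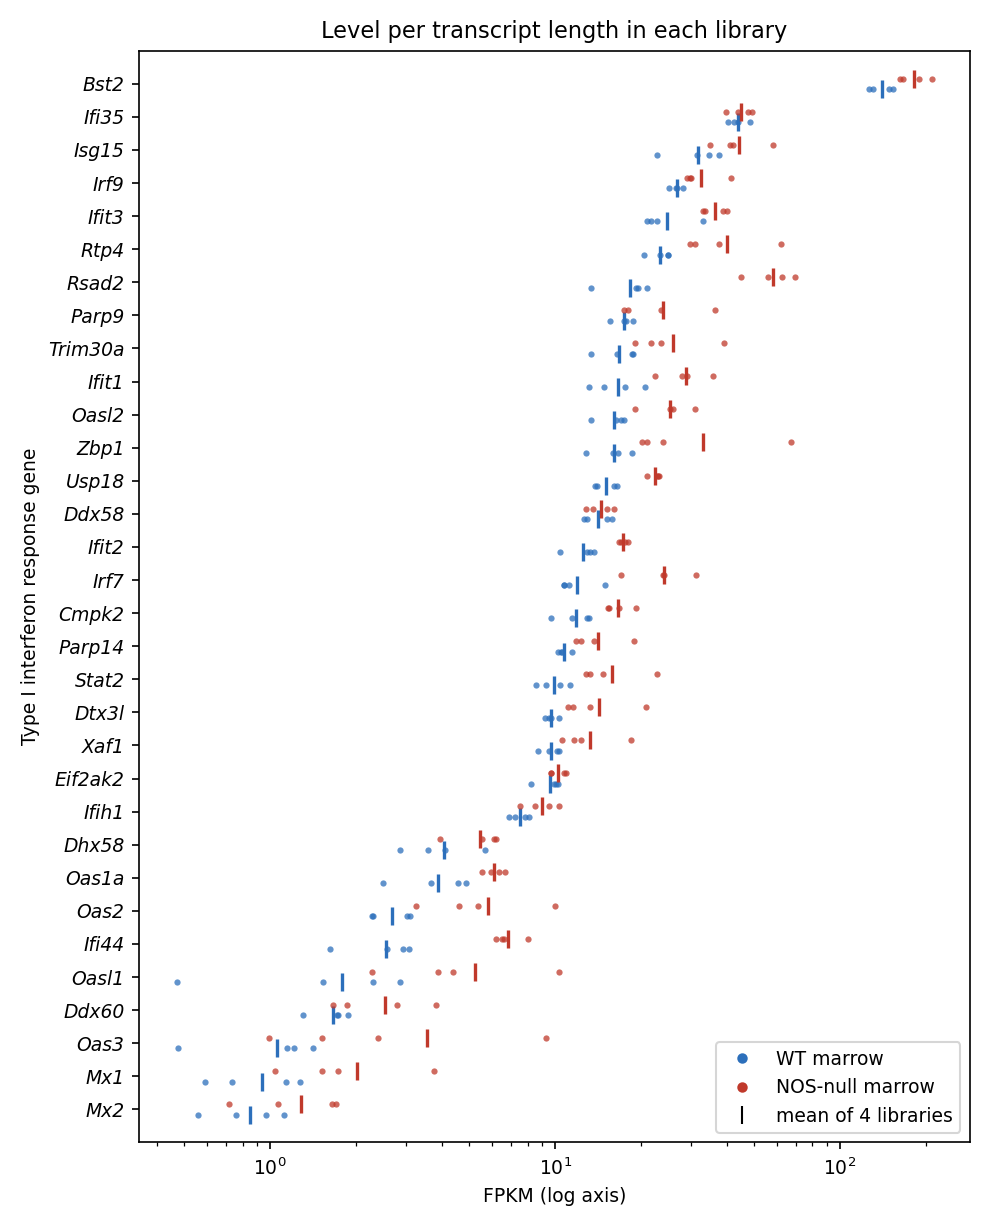
FPKM of each gene in every library (dots, log axis) and the mean of each group (ticks), ordered by the WT mean. Bst2 is highest in both groups, Rsad2 moves from 18.3 to 58.2 FPKM, and the dots of Ddx58, Ifi35 and Eif2ak2 lie over each other.

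Genes of interferon production and signalling were then followed from ligand to target. Of 45 such genes, 39 were tested, 2 rose (Usp18 and Irf7, both among the 32) and 0 fell in limma. That is 5.13% higher, against 1.87% of all tested genes. Of the 32 tested genes that are not members, 0 passed, and the median log2 change was 0.11, or 0.074 without NOS-null replicate 1. The 6 ligand genes were too low to test. Ifnb1, Ifna1, Ifna2 and Ifne were listed at 0 in all 8 libraries, and the 6 ligands together summed to at most 2.08 scaled reads in a NOS-null library and 2.96 in a WT library. The receptor chains Ifnar1 (639 ± 53.7 against 642 ± 53.7, SD, n = 4) and Ifnar2 (845 ± 27.7 against 791 ± 13.4) had log2 changes of −0.01 and 0.10, or 0.01 and 0.07 without NOS-null replicate 1.

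The kinase Jak1 had 2259 ± 315 scaled reads against 2346 ± 124 and did not pass. Among inhibitors, Ptpn11 (1402 ± 37.8 against 1360.0 ± 61.9) and Pias1 (923 ± 106 against 835 ± 91.5) had the highest means and did not pass. Irf1, the most abundant interferon regulatory factor here, had 1530.1 ± 579 against 1119 ± 84.5 and a log2 change of 0.39 (limma adjusted p 0.231). It had 2394 scaled reads in NOS-null replicate 1 and 1191 to 1318 in the other NOS-null libraries, and without replicate 1 the change was 0.15. The DNA sensing adaptor Tmem173 (STING) had 289 ± 29.4 against 365 ± 37.5, a log2 change of −0.34 (limma adjusted p 0.0897).

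Other interferon-stimulated genes, a wider list, were read in the same way. Of 54 tested, 1 rose (Ube2l6, above) and 0 fell in limma, and 43 had a change above 0. The share that rose, 1.85%, was near the 1.87% of all tested genes. The median log2 change was 0.25, or 0.17 without NOS-null replicate 1. Ifitm3 and Ifitm2, which block viral entry and had the highest means of the list, had log2 changes of 0.0034 and 0.11, or −0.13 and −0.084 without NOS-null replicate 1. The list's count was 5 without NOS-null replicate 1, 5 without replicate 3, 2 without replicate 4 and 2 without WT replicate 4. Whether the 32 genes differ from this list was not tested.

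The positions of the 32 genes were set beside those of the deleted genes. Nos2 had 13.3 to 43.5 scaled reads with NOS-null marrow and 87.4 to 115 with WT marrow, a log2 change of −1.84 (limma adjusted p 0.0221), which checks the labels. Nos3 had a log2 change of 0.07 and Nos1 was at or near 0 in all libraries. The 32 genes lie on 14 chromosomes. All 5 Oas and Oasl genes lie between 2.77 and 2.95 Mb from Nos1 on chromosome 5, and Xaf1 lies 6.61 Mb from Nos2 on chromosome 11. Of these 6 genes within 10 Mb, 1 rose (Oasl2), and of the other 26, 7 rose. The 5 Oas and Oasl genes had a median log2 change of 1.00 (0.64 to 1.55), against 0.56 for the 32. Xaf1 had 0.42, or 0.25 without NOS-null replicate 1. Whether position bears on the changes was not tested.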

How the data were processed

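RNA of 8 lungs, 4 a group, was sequenced as single reads, per the labels' protocols. The authors used CASAVA 1.8.2, TopHat2 2.0.13, Bowtie2 2.2.3, SAMtools 0.1.19 and Cufflinks 2.2.1 with mm10, per the submitters' processing notes. The sources used here give no settings or annotation for these steps. The deposited gene table holds signal values, read counts divided by 1 size factor per library by the authors, called scaled reads. Whole reads were not recovered from it, so no count model was used. FPKM values, also deposited by the authors, served for levels between genes and as an alternative. Scaled reads summed to 7767065 to 8625142 per library, and the number of libraries limits the precision. Groups were read from sample titles, since the design text of the series gives both groups NOS-null marrow.

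The log2 of each value plus 1 was taken. Genes with at least 10 scaled reads in 4 or more libraries (14008) entered limma 3.58.1 (R 4.3.3, trend on, not robust), NOS-null minus WT marrow, with Benjamini-Hochberg adjustment over all of them at 0.05. Intervals are 95% intervals. Positions came from GENCODE annotation and promoters from RefSeq, both on GRCm38, the assembly of mm10. The procedure was tested on simulated data. Every one of the 32 genes could be named, with each library's value for those passing. Of the other lists, passing genes and the 2 of highest mean per role could be named. Alternatives were other pseudocounts, no filter, median-of-ratios rescaling, FPKM, robust variance, a replicate block and left-out libraries. The members and lists were chosen with earlier results of these data known.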

Additional observations from a re-analysis of the deposited data

Results flagged for a closer look

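In 5 of 66 groups examined (33 genes in 2 groups of 4), 1 library lay far from the other 3, with a gap above Dixon's 95% critical value for the group's range. Chance gives such a gap in about 1 of 20 groups. Of the 5, 3 were high values in NOS-null replicate 1. Oas3 had 353 scaled reads there against 37.5 to 90.6 in the other NOS-null libraries, Zbp1 had 490.1 against 168 to 193, and Irf9 had 764 against 545 to 555. Ifit3 had 498 scaled reads in WT replicate 1 against 316 to 342 in the other WT libraries. Usp18 had 275 in NOS-null replicate 3, just under the 299.9 to 302 of the other 3.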

How the results depend on the processing

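Of the 32 genes, 8 rose with pseudocounts of 0.5 and 5 and after median-of-ratios rescaling, 7 without a filter on low values and in FPKM (Cmpk2 was lost in both), and 9 with robust variance (Ifit3 was gained). Leaving out 1 library gave 2 to 11 for the 32 genes, 71 to 798 for all genes (567 with all libraries), 0 to 4 for the sensing and signalling genes and 1 to 5 for the other interferon-stimulated genes. Leaving out both NOS-null replicates 1 and 2 gave 2 (Rsad2 and Ifi44), 181 and 0 for the first 3. For the other interferon-stimulated genes, median-of-ratios rescaling gave 2 and robust variance 3. The stricter ISRE core was in 9 promoters. With the replicate number as a block, 135 of all genes passed, 3 of the 32 (Ifi44, Irf7 and Rsad2) and 1 sensing gene. The labels do not say whether the numbers pair the samples, and the correlations do not settle it. Same-numbered libraries correlated at 0.0428, 0.169, −0.00266 and 0.151, and differently numbered ones at −0.18 to 0.112. Counts of genes that fell were 0 in these lists under every alternative run. Directions reversed only in Ifi35, at −0.00041 without NOS-null replicate 3, and in Ddx58, at −0.024, −0.020 and −0.010 without NOS-null replicate 4 and WT replicates 3 and 4. With 1 library left out, the log2 change ranged from −0.00041 to 0.10 in Ifi35 and from −0.024 to 0.086 in Ddx58. The causes were not tested. With 4 libraries a group, changes of low genes such as Mx2 and Oas3 are loosely bounded.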
